A study of Homo sapiens with 30 samples.

Results

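Fibrinolysis and coagulation were followed through 9 genes, taken by symbol from the gene count tables of the study: SERPINB2, PLAU, PLAUR, PLAT, F3, TFPI, TFPI2, THBD and THBS1. All 9 were among the 18460 genes of each table. The libraries came from cocultures of A549 cells, a human lung adenocarcinoma line on the apical side of an insert, and EA.hy926 cells, a human endothelial line on the basolateral side that descends from a fusion of endothelial cells of the umbilical vein with an A549 clone. For 4 h the air above each coculture carried no particles (clean air, CA), soot particles (SP), or soot mixed with β-pinene or naphthalene and photochemically aged, which coated it with secondary organic aerosol (SOAβPIN-SP and SOANAP-SP). The aerosol reached the A549 side, and both lines were harvested separately afterwards. Each line had 4 libraries with CA, 3 with SP, 4 with SOAβPIN-SP and 4 with SOANAP-SP. The labels state 1 mg of soot and 4 mg of precursor per ml, whereas the methods of the study state these masses per cubic metre of air. The aerosol was diluted before it reached the cells. The deposition that the study estimated at this dilution was lowest with SP and highest with SOANAP-SP. Both lines are immortal, each is a single line, and the libraries of a group are repeats of the exposure in different numbered experiments. No experiment held different aerosols, and CA shared an experiment only with SOAβPIN-SP (experiment 38), SOANAP-SP (experiment 42) and SP (experiment 53), 1 library of each per line, so that a difference between aerosols and a difference between experiments cannot be told apart.

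Plasmin, the protease that dissolves fibrin, is cut from plasminogen by urokinase (PLAU), which acts on the cell surface when bound to its receptor (PLAUR), and by tissue-type plasminogen activator (PLAT), which endothelial cells release into blood. SERPINB2, also called plasminogen activator inhibitor 2, blocks urokinase and is known as a stress- and inflammation-induced serpin. Clotting starts when tissue factor (F3) binds factor VII, a step that TFPI inhibits, while its relative TFPI2 inhibits plasmin and other proteases in the matrix. Thrombomodulin (THBD) turns thrombin towards the activation of the anticoagulant protein C, and thrombospondin 1 (THBS1) is a matrix glycoprotein of platelets and other cells that binds several of these proteases and activates latent TGF-β.

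The A549 libraries held between 7317041 and 15012539 counts, and those of EA.hy926 cells between 10003314 and 16610686. Levels are given as CPM, the count relative to the library total after TMM scaling, which corrects totals for differences in composition. The marker levels of this paragraph are relative to the library total without TMM scaling. The libraries carried the markers of their lines, with summed endothelial markers of 86.9 to 127 CPM in A549 and 2026 to 2449 CPM in EA.hy926 libraries (11 genes of the list measured) and summed epithelial markers of 13505 to 19073 CPM in A549 and 1539 to 2119 CPM in EA.hy926 libraries (9 genes measured). Some defining markers were low in their own line. SFTPC, the surfactant protein of alveolar type II cells, was at 0 to 0.280 CPM in A549 cells. In EA.hy926 cells VWF was at 0.656 to 2.47 CPM, and CLDN5 and EMCN at most at 0.600 and 5.10 CPM. PECAM1, CDH5, TEK, TIE1, ERG, ESAM, ICAM2 and EGFL7 were higher there, with a lowest value of 49.5 CPM (PECAM1). EGFL7 made up most of the endothelial sum in A549 cells (79.3 to 120 CPM). KRT7, KRT8 and KRT18 made up most of the epithelial sum in EA.hy926 cells. The share of mitochondrial transcripts in A549 cells was 10.7 to 15.3% with CA and 13.1 to 17.4% with SOANAP-SP, and its part in the A549 results was not tested. In bulk libraries, fewer cells of a type and less RNA per cell cannot be told apart.

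With CA alone, the lines differed in the level of most of the 9 genes. In CA, PLAT was 22.3-fold higher in EA.hy926 than in A549 cells, PLAU 7.37-fold, THBS1 5.33-fold and THBD 2.91-fold. F3 was 18.1-fold lower in EA.hy926 cells. PLAUR, at 60.0 to 80.8 CPM in A549 and 69.9 to 97.8 CPM in EA.hy926 cells on a scale common to all 30 libraries, differed by a log2 fold change of 0.20 ± 0.14 (SE; edgeR quasi-likelihood test, adjusted p = 0.178; 95% interval -0.08 to 0.49). TFPI differed by 0.26 ± 0.10, with an adjusted p of 0.0167 that passed and a size that did not. The largest adjusted p among the called genes of this contrast was 3.63e-06, for SERPINB2. A gene was called when its adjusted p was 0.05 or less and its log2 fold change at least 0.5 in size, and 7 of the 9 genes were called here, beside 70.7% of all 12599 genes tested. Higher in EA.hy926 cells were 5 of the 9 (32.8% of all genes) and lower 2 (37.9%).

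SERPINB2 and TFPI2 were each nearly restricted to a single line in these libraries. SERPINB2 had 0 counts in every A549 library except SOANAP-SP replicate 1, which had 1 count. Against a floor of 3 counts over the 4 A549 CA libraries (0.0711 CPM), its mean of 1.71 CPM in EA.hy926 CA libraries was at least 24.1-fold higher. TFPI2 was at 271 to 321 CPM in the 4 A549 CA libraries on the common scale. In EA.hy926 CA libraries it had 21, 0, 1 and 0 counts, so no fold is given.

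Per kilobase of exon, TFPI2 led the A549 order in CA at 116 CPM per kb, above THBD, PLAU, PLAUR and THBS1 at 18.4, 16.6, 15.7 and 15.7 CPM per kb, whose ranges over the 4 libraries overlapped. TFPI (4.23 CPM per kb), F3 (1.71) and PLAT (0.473) followed without overlap. In EA.hy926 cells, PLAU (138 CPM per kb), THBS1 (94.1) and THBD (59.9) led the order. THBS1 overlapped both PLAU and THBD, which did not overlap each other. PLAUR (20.3), PLAT (12.1) and TFPI (5.66) followed without overlap. SERPINB2 (0.669), TFPI2 (0.161) and F3 (0.0989) were at the bottom, where TFPI2 overlapped both SERPINB2 and F3, which did not overlap each other. The levels of this paragraph are on the TMM scale of each line. The exon length was the union over all annotated transcripts of a gene, such as 11714 bases for TFPI and 4040 for THBD. The order therefore depends on the annotation.

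**Figure D1:**
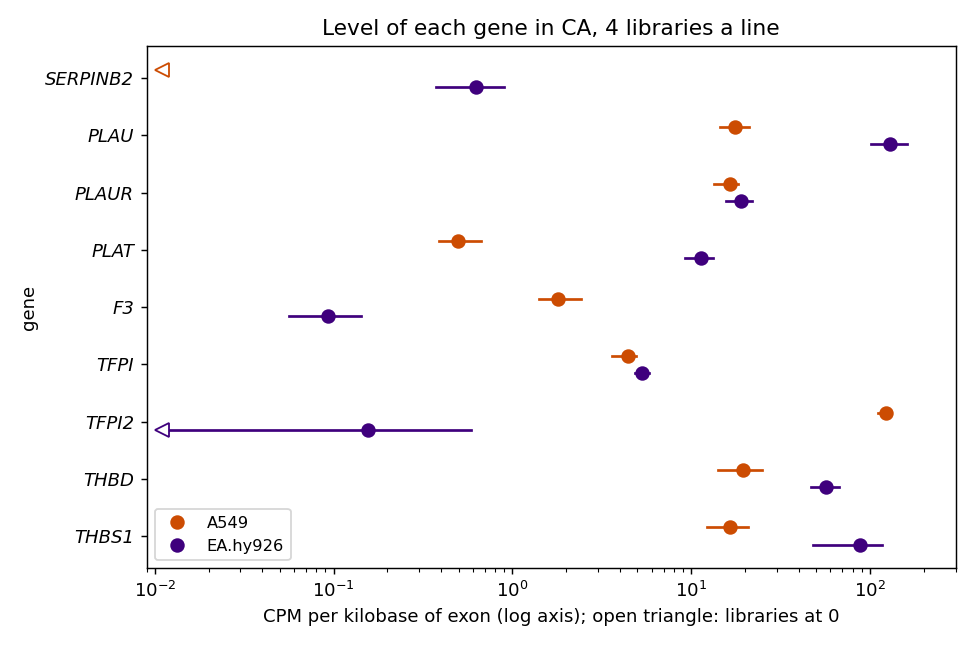
Level of each gene in CA in CPM per kilobase of exon (log axis) in A549 and EA.hy926 cells; points are means of 4 libraries and lines run from the lowest to the highest library, with open triangles where libraries had 0 counts. PLAT lies at 0.498 CPM per kb in A549 and 11.3 CPM per kb in EA.hy926 cells on the scale common to all libraries, SERPINB2 is at 0 in the A549 libraries, and TFPI2 is the highest gene in A549 cells and reaches 0 in EA.hy926 libraries.

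A gene was tested in a line when at least 3 of its 15 libraries had 30 counts or more. In all, 3 of the 18 combinations of gene and line were too low to test: SERPINB2 in A549 (at most 1 count), and F3 and TFPI2 in EA.hy926 (at most 21 counts each). PLAT in A549 cells passed narrowly, with 10 to 61 counts.

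In A549 cells TFPI rose with both secondary organic aerosols, while most other called genes fell. With SP, 0 of 8 tested genes were called by edgeR (5.99% of all 11775 genes tested were called, 2.02% higher and 3.97% lower; by limma-voom and by DESeq2 1 of 8, PLAUR, was called), and 2 of 8 had an unadjusted p under 0.05, PLAUR and TFPI. With SOAβPIN-SP, F3 and TFPI rose and PLAU, PLAUR and THBD fell, 5 of 8 beside 13.2% of all genes (4.31% higher, 8.93% lower). With SOANAP-SP, TFPI rose and PLAT, PLAU, TFPI2, THBS1 and THBD fell, 6 of 8 beside 18.2% of all genes (6.92% higher, 11.3% lower). The median log2 fold change over the 8 genes was -0.06 with SP, -0.51 with SOAβPIN-SP and -0.58 with SOANAP-SP, and the median over all genes tested was within 0.01 of 0 in each.

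In EA.hy926 cells all called genes rose. SERPINB2 alone was called with SP (1 of 7 tested genes, beside 9.83% of all 10709 genes tested, 4.72% higher and 5.12% lower) and with SOANAP-SP (1 of 7, beside 14.8%, of which 6.26% higher and 8.57% lower). With SOAβPIN-SP, SERPINB2, TFPI and PLAT were called (3 of 7, beside 11.2%, of which 5.04% higher and 6.14% lower). The median over the 7 genes was 0.27, 0.26 and 0.29 with SP, SOAβPIN-SP and SOANAP-SP. The 3 contrasts of a line share their CA libraries, so their resemblance is no separate evidence. For the statements below on libraries that do not overlap CA, the share of all tested A549 genes with every exposed library above CA was 9.50%, 9.90% and 15.3%, and with every one below 11.4%, 13.1% and 17.8%, with SP, SOAβPIN-SP and SOANAP-SP. In EA.hy926 cells the share with no overlap in either direction was 26.7%, 23.2% and 27.2%.

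**Figure D2:**
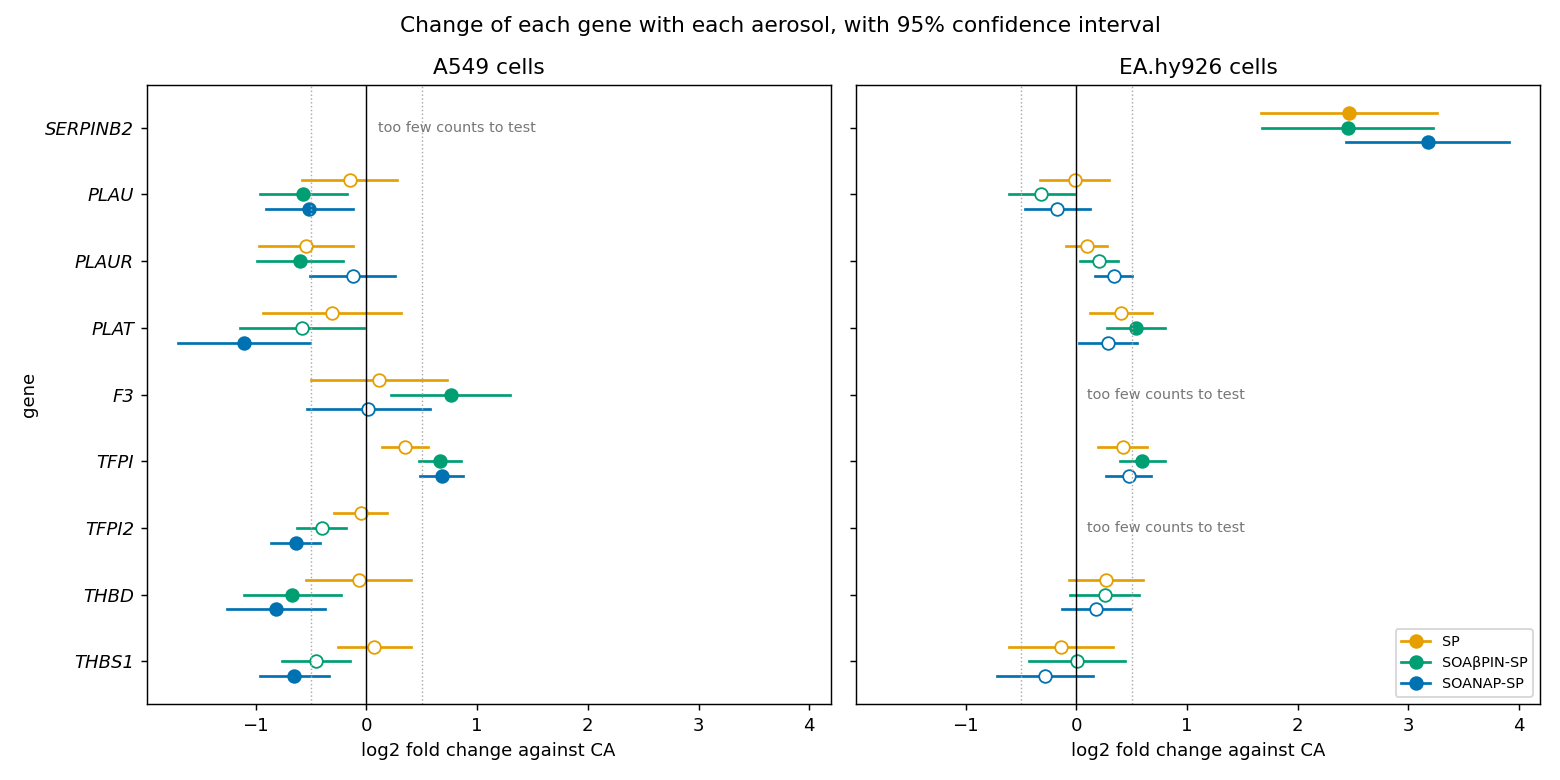
Log2 fold change of each gene against CA with its 95% confidence interval, in A549 cells (left) and EA.hy926 cells (right), by aerosol; filled points were called and open points were not, and dotted lines mark a size of 0.5. SERPINB2 stands apart in EA.hy926 cells at 2.45 to 3.18, and in A549 cells TFPI lies to the right and PLAT, TFPI2, THBD and THBS1 with SOANAP-SP to the left of 0.

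SERPINB2, the urokinase inhibitor, showed the largest change of the 9 genes. In the 4 EA.hy926 CA libraries it was at 1.06, 1.53, 2.11 and 2.63 CPM (15 to 31 counts). With SP it was at 7.87, 12.6 and 9.54 CPM, with SOAβPIN-SP at 11.3, 6.92, 14.2 and 7.62 CPM, and with SOANAP-SP at 16.0, 23.3, 17.3 and 8.76 CPM. Every exposed library lay above every CA library, with no overlap for any aerosol. The log2 fold change was 2.47 ± 0.37 with SP (5.53-fold, adjusted p = 0.000308), 2.45 ± 0.36 with SOAβPIN-SP (5.48-fold, adjusted p = 0.000171) and 3.18 ± 0.35 with SOANAP-SP (9.03-fold, adjusted p = 4.84e-06). Within single experiments, the exposed library exceeded the CA library of the same experiment by 2.19 (SP), 2.20 (SOAβPIN-SP) and 2.83 (SOANAP-SP) on the log2 scale. With each library left out in turn, every value was called, and the lowest were 2.25, 2.23 and 2.94 with SP, SOAβPIN-SP and SOANAP-SP. The mean level with SOANAP-SP was the highest, 16.4 ± 5.98 CPM (SD, n = 4) against 9.99 ± 2.37 (n = 3) with SP and 10.004 ± 3.38 (n = 4) with SOAβPIN-SP, but the libraries overlapped and no difference between aerosols was called: 0.71 ± 0.30 against SP (adjusted p = 0.305; 95% interval 0.08 to 1.34), 0.72 ± 0.28 against SOAβPIN-SP (adjusted p = 0.268; 0.13 to 1.32) and -0.01 ± 0.31 for SOAβPIN-SP against SP (adjusted p = 0.999; -0.67 to 0.64).

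The DNA upstream of the start of SERPINB2 is shown because it is the gene with the largest response, on GRCh38.p14 from RefSeq and ending 1 base before the RefSeq start, with capitals for a match to the AP-1 motif TGANTCA. The match begins 102 bases upstream of the start.
SERPINB2 upstream, chr18:63887455-63887704, plus strand: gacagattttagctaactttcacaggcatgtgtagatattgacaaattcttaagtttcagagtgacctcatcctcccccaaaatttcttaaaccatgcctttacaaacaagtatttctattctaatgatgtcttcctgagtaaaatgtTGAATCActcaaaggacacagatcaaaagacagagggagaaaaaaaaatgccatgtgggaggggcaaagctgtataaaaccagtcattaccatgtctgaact
Promoter windows of 300 bases (250 before and 50 after the start) were at hand for 7 of the 9 genes, all but PLAT and THBD, and were searched on both strands for AP-1 (TGANTCA), CRE (TGACGTCA) and the NF-kB motif. AP-1 matches were found for SERPINB2, PLAUR, F3 and TFPI2 and none for PLAU, TFPI and THBS1, where 7.73% of 34796 windows held one. No window of the 7 genes held the NF-kB or CRE motif, found in 1.91% and 1.84% of all windows. A match describes the letters alone.

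**Figure D3:**
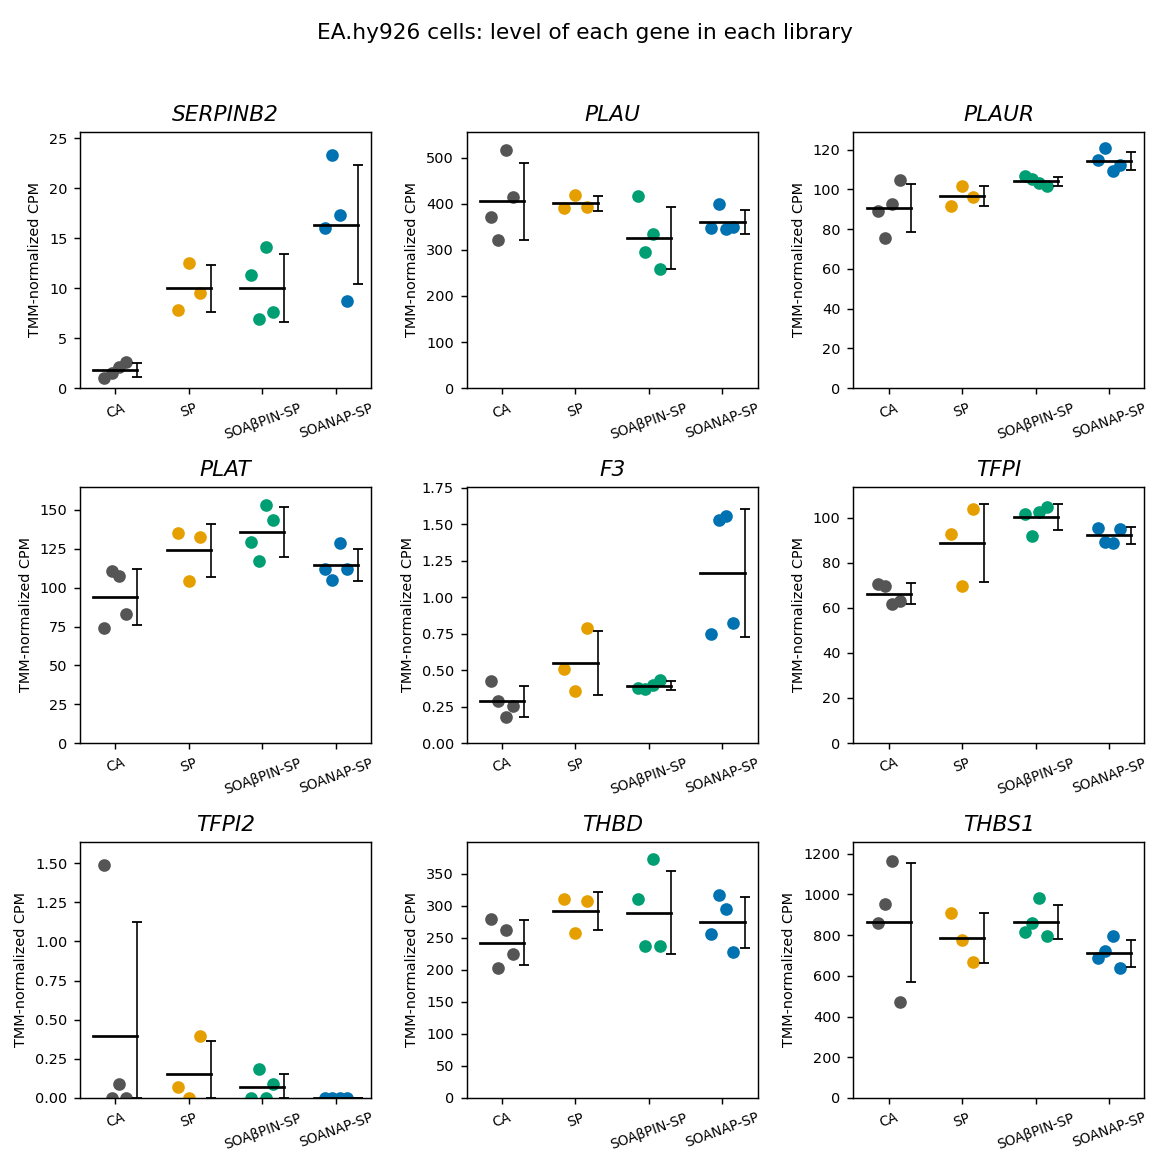
TMM-normalized CPM of the 9 genes in each EA.hy926 library (points), by exposure, with the mean (line) and SD (bar, cut at 0); n = 4, and 3 for SP. The exposed SERPINB2 libraries run from 6.92 to 23.3 CPM above CA libraries of 1.06 to 2.63 CPM, while PLAU, THBD and THBS1 overlap CA with every aerosol.

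Of the plasminogen activators, PLAT was called lower in A549 cells with SOANAP-SP and higher in EA.hy926 cells with SOAβPIN-SP. In A549 cells PLAT fell from 3.82, 3.097, 2.87 and 4.92 CPM with CA to 2.46, 1.17, 1.92 and 1.39 CPM with SOANAP-SP, without overlap, a log2 fold change of -1.11 ± 0.29 (2.16-fold lower, adjusted p = 0.00531). These levels rest on 16 to 27 counts per SOANAP-SP library, and in experiment 42 the pair of libraries differed by only -0.21. With SP and SOAβPIN-SP the A549 values were -0.31 ± 0.30 (adjusted p = 0.568) and -0.58 ± 0.27 (adjusted p = 0.120). In EA.hy926 cells PLAT was at 73.9, 111, 107 and 83.1 CPM with CA. It was at 129, 117, 153 and 144 CPM with SOAβPIN-SP, all above CA, a rise of 0.54 ± 0.12 (1.45-fold, adjusted p = 0.00425). This rise was just above the size threshold and was not called without CA replicate 1 (0.43), CA replicate 4 (0.48) or SOAβPIN-SP replicate 3 (0.47). With SP the value was 0.40 ± 0.13 (adjusted p = 0.0422), below the size threshold, and 0.53 and called without SP replicate 2; with SOANAP-SP it was 0.29 ± 0.12 (adjusted p = 0.0912).

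PLAU, encoding urokinase, was called lower in A549 cells with both secondary organic aerosols and in no contrast with CA in EA.hy926 cells. In A549 cells it was at 40.7, 42.2, 54.6 and 58.5 CPM with CA. It was at 28.0, 35.03, 29.98 and 38.3 CPM with SOAβPIN-SP, all below CA, and at 40.8, 29.5, 25.7 and 41.0 CPM with SOANAP-SP, of which the 2 highest lay just inside the CA range. The falls were -0.57 ± 0.19 (1.48-fold lower, adjusted p = 0.0340) and -0.52 ± 0.19 (1.43-fold lower, adjusted p = 0.0406). Both depended on single libraries: the first was not called without CA replicate 3 or 4 or SOAβPIN-SP replicate 1, 2 or 3 (-0.60 to -0.47 without these), nor the second without CA replicate 3 or 4 or SOANAP-SP replicate 2 or 3 (-0.46 to -0.39). With no filter on low counts neither was called (-0.55, adjusted p = 0.0568, and -0.49, adjusted p = 0.0690). In EA.hy926 cells PLAU was at 321 to 517 CPM with CA and 258 to 420.0 CPM with the aerosols, and its log2 fold changes of -0.02, -0.32 and -0.17 were not called (adjusted p = 0.955, 0.112 and 0.387 with SP, SOAβPIN-SP and SOANAP-SP). The response of PLAU was not shown to differ between the lines, with differences of 0.24 ± 0.24 (SOAβPIN-SP, adjusted p = 0.589) and 0.33 ± 0.24 (SOANAP-SP, adjusted p = 0.379).

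PLAUR, the receptor that holds urokinase at the cell surface, was at 71.3, 57.3, 75.2 and 76.6 CPM with CA in A549 cells and at 36.0, 43.999, 44.5 and 59.4 CPM with SOAβPIN-SP. The highest exposed library exceeded the lowest CA library, both of experiment 38, and there the pair differed by 0.05 in the other direction. The fall over all libraries was -0.60 ± 0.18 (1.52-fold lower, adjusted p = 0.0243), and it was not called without CA replicate 1, 3 or 4 or SOAβPIN-SP replicate 1, 2 or 3 (-0.59 to -0.50 without these). With SP, PLAUR stood at 40.7, 65.9 and 37.9 CPM, -0.55 ± 0.20 (adjusted p = 0.0995), and at -0.83 and called without SP replicate 2. With SOANAP-SP it was at 55.1 to 80.3 CPM, -0.12 ± 0.18 (adjusted p = 0.621). In EA.hy926 cells PLAUR with SOANAP-SP was at 115, 121, 109 and 112 CPM, above the 75.4 to 105 CPM of CA, 0.34 ± 0.08 (1.26-fold, adjusted p = 0.00384), under the size threshold.

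**Figure D4:**
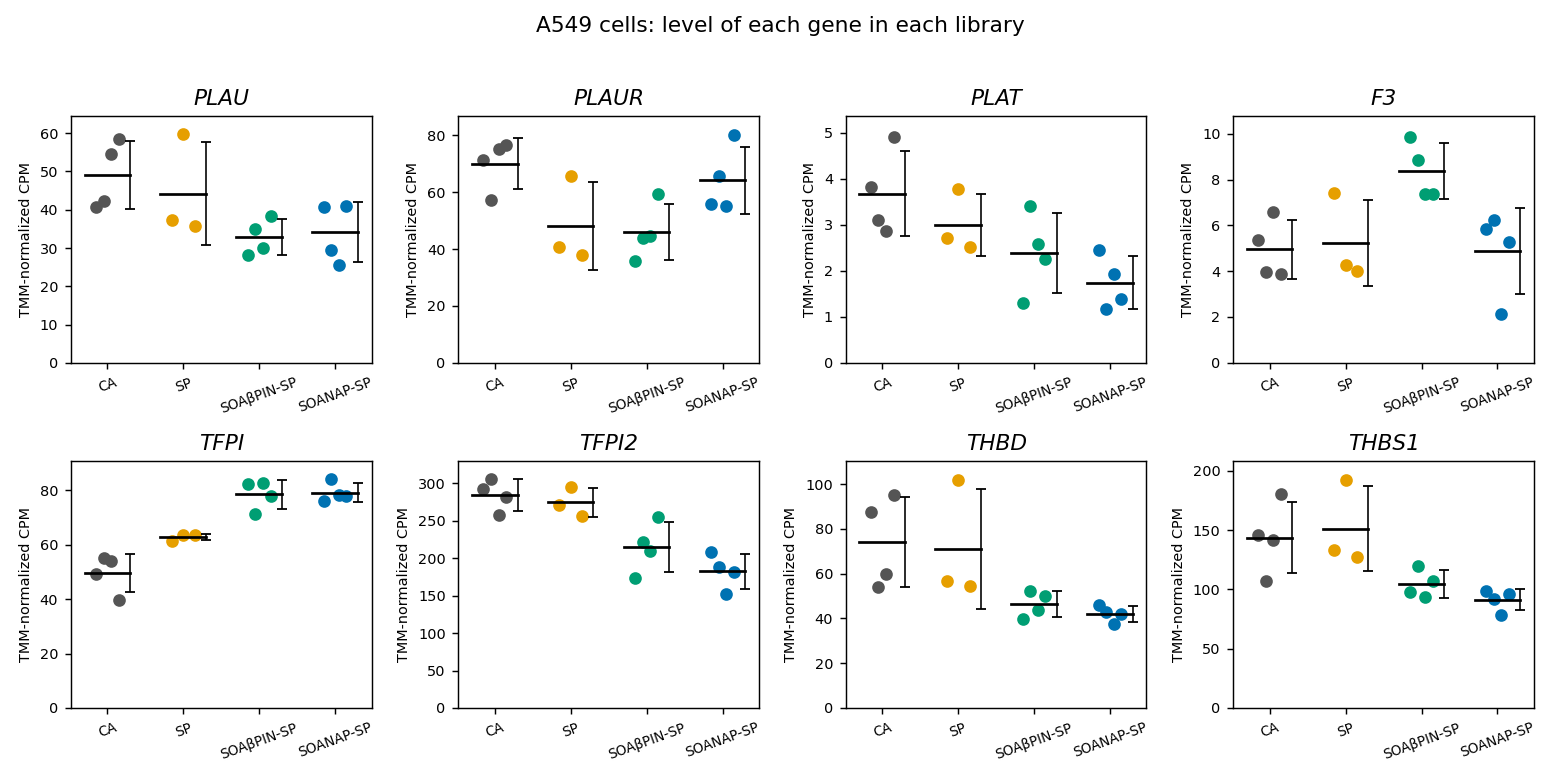
TMM-normalized CPM of 8 genes in each A549 library (points), by exposure, with the mean (line) and SD (bar); n = 4, and 3 for SP. TFPI lies above the CA range with every aerosol (61.6 to 84.2 CPM against 39.9 to 55.1 CPM), and TFPI2, THBD and PLAT with SOANAP-SP lie below it; SERPINB2, with 1 count in all, is not drawn.

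F3, the gene of tissue factor, was low in A549 cells, at 5.37, 3.96, 6.59 and 3.87 CPM with CA. With SOAβPIN-SP it was at 9.87, 8.84, 7.36 and 7.37 CPM, all above CA, a rise of 0.76 ± 0.26 (1.69-fold, adjusted p = 0.0349). The pair in experiment 38 differed by 0.87 in the same direction. The rise was not called without CA replicate 1, 2 or 4 or SOAβPIN-SP replicate 1 or 2 (0.66 to 0.81 without these). With SP it was at 7.39, 4.28 and 4.00 CPM and with SOANAP-SP at 5.84, 6.24, 2.14 and 5.29 CPM, which overlapped CA (0.11 ± 0.29, adjusted p = 0.861, and 0.02 ± 0.27, adjusted p = 0.9698). In EA.hy926 cells F3 had 6, 3, 2 and 3 counts with CA, 7, 6 and 8 with SP, 4, 4, 4 and 5 with SOAβPIN-SP and 9, 20, 21 and 9 with SOANAP-SP. The SOANAP-SP counts lay above all CA counts, and a fit with no filter on low counts gave 1.98 ± 0.43 (adjusted p = 0.00101) for a gene that the main filter left untested. Its upstream sequence, shown because F3 rose in the line that faced the aerosol, holds a pair of AP-1 matches 223 and 210 bases before the start (capitals).
F3 upstream, chr1:94541760-94542009, minus strand: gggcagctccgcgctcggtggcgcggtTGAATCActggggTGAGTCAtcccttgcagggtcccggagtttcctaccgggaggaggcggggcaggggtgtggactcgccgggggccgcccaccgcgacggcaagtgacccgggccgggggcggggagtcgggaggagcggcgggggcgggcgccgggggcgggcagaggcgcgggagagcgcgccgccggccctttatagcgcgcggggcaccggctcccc

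TFPI, the inhibitor of the tissue factor pathway, was called higher in A549 cells with both secondary organic aerosols and in EA.hy926 cells with SOAβPIN-SP. In A549 cells its CPM was 49.1, 55.1, 53.9 and 39.9 with CA, and 61.6, 63.5 and 63.7 with SP. It was 82.2, 71.4, 82.6 and 77.7 with SOAβPIN-SP and 76.1, 84.2, 78.5 and 77.8 with SOANAP-SP. No exposed library overlapped CA. The rises were 0.66 ± 0.09 with SOAβPIN-SP (1.58-fold, adjusted p = 3.00e-05) and 0.68 ± 0.09 with SOANAP-SP (1.60-fold, adjusted p = 2.01e-05), both called with each library left out in turn and with 0.49 in each shared experiment, while the value with SP was 0.35 ± 0.10 (adjusted p = 0.0314), under the size threshold. In EA.hy926 cells TFPI was at 61.7 to 70.6 CPM with CA and at 102, 91.8, 103 and 105 CPM with SOAβPIN-SP, a rise of 0.60 ± 0.10 (1.51-fold, adjusted p = 0.000183). With SOANAP-SP it was at 88.7 to 95.3 CPM, also above CA, 0.47 ± 0.10 (1.39-fold, adjusted p = 0.000934), just under the size threshold. With SP it was at 92.8, 69.8 and 104 CPM, 0.42 ± 0.10 (adjusted p = 0.00772), and 0.58 and called without SP replicate 2, the library within the CA range.

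TFPI2, the Kunitz inhibitor related to TFPI, moved the other way in A549 cells. It was at 293, 306, 257 and 282 CPM with CA and at 272, 296 and 257 CPM with SP, which overlapped. With SOANAP-SP it was at 209, 189, 153 and 182 CPM, all below CA, a fall of -0.64 ± 0.11 (1.56-fold lower, adjusted p = 0.000153). With SOAβPIN-SP, at 174, 222, 209.7 and 255 CPM and also below CA, the value was -0.40 ± 0.11 (adjusted p = 0.00820), under the size threshold. In EA.hy926 cells TFPI2 had at most 4 counts except for 21 counts in CA replicate 1. Of 3 epithelial genes, that library had 4 counts of EPCAM, 2 of CDH1 and 6 of KRT19. The other 14 EA.hy926 libraries had 0 counts of CDH1 but 0 to 9 of EPCAM and 0 to 9 of KRT19, with both at 9 in SP replicate 2, where TFPI2 had 0 counts. The upstream sequences of both inhibitors are shown because they changed in opposite directions in A549 cells with SOANAP-SP. TFPI2 has 1 AP-1 match (capitals, from 87 bases before the start) and TFPI has none.
TFPI upstream, chr2:187554436-187554685, minus strand: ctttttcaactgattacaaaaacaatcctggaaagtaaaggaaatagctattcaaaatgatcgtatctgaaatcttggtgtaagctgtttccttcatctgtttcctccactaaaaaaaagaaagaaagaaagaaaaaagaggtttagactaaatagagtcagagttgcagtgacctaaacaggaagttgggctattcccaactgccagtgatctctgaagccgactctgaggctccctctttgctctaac
TFPI2 upstream, chr7:93890754-93891003, minus strand: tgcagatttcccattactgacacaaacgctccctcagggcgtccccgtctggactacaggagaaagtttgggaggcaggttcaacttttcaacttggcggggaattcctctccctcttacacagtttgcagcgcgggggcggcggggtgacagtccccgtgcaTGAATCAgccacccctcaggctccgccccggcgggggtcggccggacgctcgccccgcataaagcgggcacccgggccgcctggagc

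THBD, the thrombin cofactor for protein C activation, fell in A549 cells with both secondary organic aerosols. It was at 87.6, 54.1, 60.0 and 95.03 CPM with CA. It was at 39.6, 52.4, 43.9 and 49.9 CPM with SOAβPIN-SP and at 46.1, 42.8, 37.3 and 41.99 CPM with SOANAP-SP, all below CA. The values were -0.67 ± 0.21 (1.59-fold lower, adjusted p = 0.0266) and -0.82 ± 0.21 (1.76-fold lower, adjusted p = 0.00701). The CA libraries of experiments 38 and 42 were the 2 lowest, and the pairs within these experiments differed by -0.12 and -0.38. The SOAβPIN-SP fall was not called without CA replicate 1 or 4 or SOAβPIN-SP replicate 1 or 3 (-0.64 to -0.53 without these). It was also not called with no filter on low counts (-0.65, adjusted p = 0.0565). The SOANAP-SP fall was called with each CA or SOANAP-SP library left out in turn and with no filter. With SP, at 56.8, 102 and 54.3 CPM, the value was -0.07 ± 0.22 (adjusted p = 0.886). In EA.hy926 cells THBD was at 203 to 279.7 CPM with CA and 228 to 372 CPM with the aerosols, and the values of 0.27, 0.26 and 0.18 with SP, SOAβPIN-SP and SOANAP-SP were not called (adjusted p = 0.263, 0.231 and 0.398).

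THBS1, the matrix glycoprotein, fell in A549 cells with SOANAP-SP, from 146, 107, 142 and 180.2 CPM with CA to 99.0, 92.0, 78.7 and 95.9 CPM. The groups did not overlap, and the value was -0.65 ± 0.15 (1.57-fold lower, adjusted p = 0.00267), with -0.51 in experiment 42. With SOAβPIN-SP it was at 97.6, 119.7, 94.0 and 107 CPM, -0.46 ± 0.15 (adjusted p = 0.0296), under the size threshold, and called without CA replicate 2 (-0.57) or SOAβPIN-SP replicate 2 (-0.53). With SP it was at 134, 192 and 127 CPM, 0.07 ± 0.16 (adjusted p = 0.834). In EA.hy926 cells the CA libraries alone spanned 471 to 1165 CPM, and the values of -0.14, 0.00 and -0.28 with SP, SOAβPIN-SP and SOANAP-SP had adjusted p of 0.712, 0.995 and 0.334. The line differences of THBS1, -0.21 ± 0.29, 0.44 ± 0.27 and 0.36 ± 0.27, were not called either (adjusted p = 0.774, 0.307 and 0.381).

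The difference between the lines was tested for the 6 genes that passed the filter in both. With SOAβPIN-SP, 3 of 6 were called, beside 10.1% of all genes in that test (6.01% higher), all with a higher log2 change in EA.hy926 than in A549 cells: PLAT by 1.09 ± 0.27 (adjusted p = 0.00735), THBD by 0.90 ± 0.27 (adjusted p = 0.0281) and PLAUR by 0.78 ± 0.20 (adjusted p = 0.00819). With SOANAP-SP, 2 of 6 were called, beside 11.4% (7.02% higher): PLAT by 1.40 ± 0.29 (adjusted p = 0.00125) and THBD by 0.98 ± 0.27 (adjusted p = 0.0162). With SP, 0 of 6 were called by edgeR, beside 3.37%, and likewise 0 by limma-voom and by DESeq2. PLAT (0.72 ± 0.30, adjusted p = 0.198) and PLAUR (0.63 ± 0.22, adjusted p = 0.0999) had an unadjusted p under 0.05 there. Libraries of both lines with the same experiment and exposure were taken as the same coculture. With the coculture as a block, PLAUR was called with SP (0.66, adjusted p = 0.0294) and THBD was not with SOAβPIN-SP (0.86, adjusted p = 0.0807). The THBD difference with SOAβPIN-SP was also not called without A549 CA replicate 1 or 4, A549 SOAβPIN-SP replicate 1 or 3, EA.hy926 SOAβPIN-SP replicate 1 or 3 or EA.hy926 CA replicate 2 (0.76 to 0.88 without these) or with no filter on low counts (0.90, adjusted p = 0.0546), and the PLAUR difference with SP was called without A549 SP replicate 2 (0.92). TFPI rose in both lines with SOAβPIN-SP, and its line differences of 0.06, -0.09 and -0.22 with SP, SOAβPIN-SP and SOANAP-SP were not called, with 95% intervals of -0.24 to 0.37, -0.37 to 0.19 and -0.50 to 0.06. PLAUR with SOANAP-SP (0.45 ± 0.20, adjusted p = 0.123) was called only without A549 SOANAP-SP replicate 4 (0.57).

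Between the aerosols, calls were limited to A549 cells. SOANAP-SP was lower than SP for THBS1 (-0.72 ± 0.16, 1.65-fold, adjusted p = 0.00961), THBD (-0.75 ± 0.22, 1.68-fold, adjusted p = 0.0403) and TFPI2 (-0.59 ± 0.11, 1.502-fold, adjusted p = 0.00396), 3 of 8 beside 7.13% of all genes (4.29% lower). SP replicate 2 was the highest of its group for THBS1 and THBD, and without it these were -0.51 and -0.40 and not called. The THBD call was also lost without SP replicate 1 or any 1 of the 4 SOANAP-SP libraries (-0.88 to -0.68) and with no filter on low counts (-0.73, adjusted p = 0.0794), and TFPI2 fell just under the size threshold without SOANAP-SP replicate 3 (-0.49). F3 was lower with SOANAP-SP than with SOAβPIN-SP (-0.74 ± 0.25, 1.67-fold, adjusted p = 0.0482; 1 of 8 beside 7.48%, of which 4.03% lower). That call was lost without SOAβPIN-SP replicate 1, 2 or 4 or SOANAP-SP replicate 1, 3 or 4 (-0.82 to -0.51) and with no filter on low counts (-0.74, adjusted p = 0.0548), and without SOAβPIN-SP replicate 4 PLAUR was called instead (0.63, against 0.48 ± 0.18 with all libraries). For SOAβPIN-SP against SP, 0 of 8 were called by edgeR, limma-voom or DESeq2, beside 0.0679% of all genes, and 5 of 8 had an unadjusted p under 0.05: F3 (0.65 ± 0.28), TFPI (0.32 ± 0.10), TFPI2 (-0.35 ± 0.11), THBD (-0.60 ± 0.22) and THBS1 (-0.53 ± 0.16). In EA.hy926 cells 0 of 7 were called by any of the 3 tools in the 3 contrasts, beside 0.794% (SOANAP-SP against SP), 0.598% (SOANAP-SP against SOAβPIN-SP) and 0.00% (SOAβPIN-SP against SP) of all genes. Of these 21 tests, SERPINB2 and PLAUR (0.24 ± 0.09) for SOANAP-SP against SP and SERPINB2 for SOANAP-SP against SOAβPIN-SP had an unadjusted p under 0.05.

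Within the experiments that held CA and an aerosol, 15 of the 16 called differences from CA had the same direction in the single pair of libraries, PLAUR with SOAβPIN-SP being the exception. All 5 in EA.hy926 cells kept a size of at least 0.37, the value of PLAT with SOAβPIN-SP. In A549 cells the other pair differences not given above were -0.14 and -0.42 for PLAU with SOAβPIN-SP and SOANAP-SP, and -0.30 for TFPI2 with SOANAP-SP. These are single pairs, with no test. Their libraries are among those that gave the calls, so the shared direction is no separate evidence.

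The other genes of the system were listed by role. For the counts in this paragraph and the next, 5.99%, 13.2% and 18.2% of all A549 genes tested were called with SP, SOAβPIN-SP and SOANAP-SP. With SOANAP-SP, 6.92% were higher and 11.3% lower. In EA.hy926 cells 9.83%, 11.2% and 14.8% of all genes tested were called. Of 11 tested plasminogen system genes in A549 cells, which are reported here only in part, 4 rose with SOANAP-SP. With SOANAP-SP the inhibitor SERPINE2 fell (-0.83 ± 0.15), and VTN, the matrix protein vitronectin, rose (0.81 ± 0.23), as did SERPINI1 (0.74 ± 0.23), the inhibitor neuroserpin. SERPINI1 was low, at 3.24 ± 1.04 CPM (SD) with CA and 5.37 ± 0.77 CPM with SOANAP-SP. Of 12 tested coagulation genes in A549 cells, 4 rose and 1 fell with SOANAP-SP. The fibrinogen chain genes FGG (1.10 ± 0.27), FGB (1.00 ± 0.23) and FGA (0.75 ± 0.17) and the factor VII gene F7 (0.94 ± 0.33) were the 4. F7 was low, at 1.88 ± 1.17 CPM (SD) with CA and 3.48 ± 0.56 CPM with SOANAP-SP (edgeR, adjusted p = 0.0334). The 1 that fell was VKORC1L1 (-0.58 ± 0.09), a vitamin K epoxide reductase. With SP and SOAβPIN-SP, 0 of these 12 were called by edgeR, limma-voom or DESeq2, and 1 and 3 had an unadjusted p under 0.05.

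All 3 tested genes of protease-activated receptors, of which F2R and F2RL2 encode receptors cut by thrombin, fell in A549 cells with SOANAP-SP: F2R (-0.81 ± 0.18, adjusted p = 0.00230), F2RL2 (-0.78 ± 0.18, adjusted p = 0.00253) and F2RL1 (-0.58 ± 0.19, adjusted p = 0.0307). With SP and SOAβPIN-SP edgeR called 0 of these 3, where DESeq2 called 1 and 0, limma-voom 0 and 0, and 1 and 0 had an unadjusted p under 0.05. In EA.hy926 cells F2RL2 fell with SP (-0.79 ± 0.18), SOAβPIN-SP (-0.54 ± 0.16) and SOANAP-SP (-0.77 ± 0.16), and F2RL1, protease-activated receptor 2, fell with SOANAP-SP (-0.91 ± 0.11, adjusted p = 2.44e-06). SERPIND1, heparin cofactor II, rose there with each aerosol (0.64 ± 0.18, 0.79 ± 0.17 and 0.79 ± 0.17), and the other 3 anticoagulant genes tested were not called. In A549 cells 0 of 4 tested anticoagulant genes were called by edgeR, limma-voom or DESeq2, with 1, 2 and 3 at an unadjusted p under 0.05 with SP, SOAβPIN-SP and SOANAP-SP. Of the plasminogen system genes, 0 of 8 tested in EA.hy926 cells were called with any aerosol by edgeR, limma-voom or DESeq2, and 1 had an unadjusted p under 0.05 with each. Of the coagulation genes, 0 of 7 were called there by any of these tools, with 2, 3 and 3 at an unadjusted p under 0.05. Of the 8 clade B serpins other than SERPINB2 in the table, 0 of the 4 tested in EA.hy926 cells and 0 of the 5 tested in A549 cells were called with any aerosol by edgeR, limma-voom or DESeq2. An unadjusted p under 0.05 was reached by 1 of the 4 with each aerosol and by 2, 3 and 4 of the 5 with SP, SOAβPIN-SP and SOANAP-SP. In EA.hy926 cells their log2 fold changes ran from -0.03 to 0.42. Of the thrombospondins and their receptors, edgeR called THBS3 alone, lower in A549 cells with SOAβPIN-SP (-0.58 ± 0.19, adjusted p = 0.0293). DESeq2 called 1 of the 2 tested there, and limma-voom 0.

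The genes whose log2 CPM followed SERPINB2 most closely over the 15 EA.hy926 libraries were NAMPT (Pearson r = 0.979), COQ10B (0.974) and CNST (0.974). In A549 cells those closest to THBD were GLIPR1 (0.973), SLC22A3 (0.971) and GJA1 (0.962), and those closest to THBS1 were COL4A1 (0.972), LUZP1 (0.964) and JAG1 (0.961). TFPI there was followed most closely by SLC12A2 (0.955), with RAB40B (0.954) also among its 3 closest genes, and TFPI2 by ZNF160 (0.944), VLDLR (0.936) and PIM1 (0.933). These points share libraries and exposure groups, and the values are descriptions.

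On GRCh38 (GENCODE v44), SERPINB2 lies at chr18:63871692-63903888, PLAU at chr10:73909177-73917496, TFPI at chr2:187464230-187565760 and THBS1 at chr15:39581079-39599466. The RefSeq starts used for the upstream sequences of SERPINB2 and TFPI lie inside these GENCODE spans, which begin further upstream. All counts are over the exons of a gene, and no single exon or UTR was resolved. In exons and on the opposite strand, PLAU overlaps C10orf55 (0 to 29 counts per library), TFPI overlaps CALCRL-AS1 (7 to 35 counts) and THBS1 overlaps FSIP1 (1 to 23 counts) and THBS1-AS1 (0 to 11 counts), beside at least 216 counts of PLAU, 494 of TFPI and 736 of THBS1. Exons of SERPINB2 overlap those of ENSG00000289724 on the same strand and exons of TFPI2 those of GNGT1 on the opposite strand, both not analysed here. Whether the counting used strand is not given in the sources used here.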

How the data were processed

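Poly-A RNA of 15 libraries per cell line was sequenced. Each deposited table holds counts, the reads per gene that the authors obtained with cutadapt, STAR, removal of duplicates by molecular identifier and HTSeq. The submitters' notes name STAR 2.7.3a and bcl2fastq 2.20.0.422. They name the mouse build GRCm38, the study's methods the human GRCh38, and 18395 of the 18460 gene IDs were found in GENCODE v44 on GRCh38. The authors' normalized values were not used, and the study's term for a sequencing batch, which is not named, was left out.

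Genes with 30 counts in 3 libraries of a fit were scaled by TMM and tested with edgeR 4.0.16 in R 4.3.3 (robust quasi-likelihood F-test). Exposure was the only term over the 15 libraries of a line, and the contrasts between lines used all 30 libraries. The p-values were corrected over all genes tested (Benjamini-Hochberg), and the thresholds of a call are those of the study. The filter on counts is not: the study states 30 CPM in at least 3 samples, which was used here as an alternative. Errors are standard errors of the fit, and log2 CPM of pairs and correlations had a prior count of 2. The fit was tested on simulated data with 200 changed genes. Figures were drawn with matplotlib 3.10.9. No libraries of a group were equal within sampling noise. The p-values measure the spread between repeat exposures of the same lines, and limits from counts cover counting error only.

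The members and the wider gene lists were chosen with earlier results of these data known. All members are reported, and of the wider lists the number called and up to 4 called genes with the largest change. Some genes that these rules name are not reported here, so the plasminogen system list in A549 cells is given in part. Alternatives were limma-voom 3.58.1, DESeq2 1.42.0, no filter or 30 CPM in 3 libraries, median-of-ratios scaling, library totals, the compared groups only, blocks for replicate number, experiment or coculture, and the omission of single libraries. The correlation of deviations put same-numbered libraries together, with 0.26, 0.30 and 0.40, only for SP and SOAβPIN-SP in A549 cells, where the replicate block changed no call of a member. The labels name no insert. Libraries of both lines with the same experiment and exposure were taken as the same coculture (correlations of -0.09 to 0.21).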

Additional observations from a re-analysis of the deposited data

Results flagged for a closer look

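Of 54 groups of 4 libraries examined for a single library standing apart, 3 had one. For levels well above 0, chance gives about 1 in 20 such groups. That rate does not hold for counts near 0, as for SERPINB2 in A549 and TFPI2 in EA.hy926 cells. SERPINB2 in A549 cells reached 0.0912 CPM in SOANAP-SP replicate 1, a single count, with 0 in the other 3 libraries. PLAU in EA.hy926 cells was at 399 CPM in SOANAP-SP replicate 2 and at 346 to 350.2 CPM in the other 3. TFPI2 in EA.hy926 cells was at 1.49 CPM in CA replicate 1 and at 0 to 0.0881 CPM in the other 3 CA libraries.

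The tests of the difference between the lines set apart PLAT with SOANAP-SP (1.40 higher in EA.hy926 than in A549 cells on the log2 scale) and with SOAβPIN-SP (1.09), THBD with SOANAP-SP (0.98) and with SOAβPIN-SP (0.90), and PLAUR with SOAβPIN-SP (0.78). PLAT was called in both lines with different aerosols, lower in A549 cells with SOANAP-SP and higher in EA.hy926 cells with SOAβPIN-SP. THBD and PLAUR were called in A549 cells alone against CA.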

How the results depend on the processing

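Of 1545 recomputed values of single genes, the direction and the side of the thresholds were kept in 738 of the 816 that left out 1 library and in 707 of the 729 under other settings. The number of the 9 genes called changed as follows. With SP in A549 cells it was 1 by limma-voom (PLAUR, -0.59, adjusted p = 0.0499) and 1 by DESeq2 (-0.55, adjusted p = 0.0380), against 0. With SOAβPIN-SP in A549 cells it was 3 with no filter, against 5, PLAU (adjusted p = 0.0568) and THBD (adjusted p = 0.0565) being lost, and 4 with the CPM filter. With SOANAP-SP in A549 cells it was 5 with no filter (PLAU lost, adjusted p = 0.0690) and 5 with the CPM filter, against 6. For SOANAP-SP against SP in A549 cells it was 2 with no filter (THBD lost, adjusted p = 0.0794) and 4 with library totals (PLAT gained, -0.94, adjusted p = 0.0407), against 3. For SOANAP-SP against SOAβPIN-SP in A549 cells it was 0 with no filter and 0 with the CPM filter, against 1. In EA.hy926 cells the CPM filter, which removed SERPINB2, gave 0, 2 and 0 with SP, SOAβPIN-SP and SOANAP-SP, against 1, 3 and 1, and between lines in CA it gave 5, against 7. For the difference between lines it was 1 with SP and the coculture as a block, against 0, and 2 with SOAβPIN-SP with that block or with no filter (THBD lost), against 3, and the replicate block changed no call of a member within a line. Leaving out 1 library gave 0 to 1 calls with SP, 1 to 5 with SOAβPIN-SP, 5 to 6 with SOANAP-SP, 1 to 3 for SOANAP-SP against SP and 0 to 1 for SOANAP-SP against SOAβPIN-SP in A549 cells, 1 to 3 with SP and 2 to 3 with SOAβPIN-SP in EA.hy926 cells, and 0 to 1, 2 to 3 and 2 to 3 for the difference between lines with SP, SOAβPIN-SP and SOANAP-SP.

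Values near 0 changed sign, none of them called. F3 with SOANAP-SP in A549 cells was -0.0187 by limma-voom, -0.0656 with library totals, -0.00496 with the replicate block and -0.0310 with the experiment block. PLAU with SP in EA.hy926 cells was 0.00612 by limma-voom, 0.00637 with no filter and 0.0103 with the experiment block. THBS1 with SOAβPIN-SP in EA.hy926 cells was -0.0105 with the CPM filter and -0.0124 with library totals, and SERPINB2 for SOAβPIN-SP against SP was 0.00547 by DESeq2 and 0.119 with the replicate block. Without 1 library, A549 values ran with SP from -0.24 to 0.27 for F3, from -0.42 to 0.0884 for THBD and from -0.14 to 0.20 for THBS1, and with SOANAP-SP from -0.12 to 0.25 for F3. EA.hy926 values ran with SP from -0.11 to 0.12 for PLAU and from -0.34 to 0.0428 for THBS1, with SOAβPIN-SP from -0.20 to 0.18 for THBS1, and from -0.22 to 0.20 for SERPINB2 in SOAβPIN-SP against SP. The line difference of TFPI ran from -0.0622 to 0.21 with SP and from -0.14 to 0.00259 with SOAβPIN-SP. The cause was not tested.

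The CPM filter called 252, 614 and 791 genes in A549 and 427, 458 and 626 in EA.hy926 cells with SP, SOAβPIN-SP and SOANAP-SP. The main filter called 705, 1558 and 2148 in A549 and 1053, 1197 and 1588 in EA.hy926 cells. The CPM filter also tests fewer genes, and the share it called is not given here. For SOAβPIN-SP against SP in A549 cells 8 genes were called, and 15 by limma-voom, 91 by DESeq2, 14 with the CPM filter, 60 with the compared groups only and 73 with the replicate block. For SOANAP-SP against SP in A549 cells 839 became 376 with the CPM filter and 1359 with library totals, and against SOAβPIN-SP 881 became 368 with the CPM filter. In EA.hy926 cells these contrasts called 85 and 64 genes, and 132 and 135 by DESeq2 and 54 and 42 with the CPM filter. SERPINB2 in A549 and F3 and TFPI2 in EA.hy926 cells were limited by counts.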
